A study of Mus musculus with 6 samples.

Results

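The genes described are 9 sensors of foreign or misplaced RNA and the proteins that pass on their signal: Ddx58, Ifih1, Mavs, Irf3, Ikbke, Tlr3, Tlr7, Ticam1 and Myd88. They were taken by symbol from the gene lists of the deposited count matrices, where all 9 were found among 32285 genes. Their counts were read in nuclei of the lumbar spinal cord of C57BL/6 mice aged 110 days. There were 3 libraries of SOD1G93A/PHD1-/- mice and 3 of their SOD1G93A/PHD1+/+ littermates. Both groups carry SOD1G93A, a mutant human superoxide dismutase that gives mice a motor neuron disease, and mice without it were not analysed here. PHD1, the product of Egln2, is an oxygen-dependent prolyl hydroxylase. The series title speaks of PHD1 and of an interferon response in astrocytes, and the comparison asks what the RNA-sensing genes look like in each cell class with and without PHD1.

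Cells meet viral or self RNA at separate places. In the cytoplasm, RIG-I (from Ddx58) binds short or end-marked double-stranded RNA and MDA5 (from Ifih1) binds long double-stranded RNA, and both signal through MAVS on the mitochondrial membrane. In endosomes, TLR3 binds double-stranded RNA and signals through the adaptor TRIF (from Ticam1), while TLR7 binds single-stranded RNA and signals through MYD88. MAVS and TRIF lead to the kinases TBK1 and IKK-epsilon (from Ikbke), which phosphorylate the transcription factor IRF3 to switch on interferon genes. Interferon in turn raises the transcription of many sensor genes, and microglia and astrocytes are the glial cells in which these receptors have been studied most in the central nervous system.

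The promoters of 3 members are shown because each holds the core of the interferon-stimulated response element, the sequence bound by interferon regulatory factors. Sequences are those of RefSeq on GRCm38.p6, from 250 bases before to 50 bases after the annotated start, read 5′ to 3′ along the gene, with the motif in capitals. The letters searched were GAAANNGAAA on the strand of the gene and TTTCNNTTTC for the opposite strand. Ddx58 lies on the minus strand at chr4:40239776-40240075, with the motif on the opposite strand from base 3 after the start.
Ddx58: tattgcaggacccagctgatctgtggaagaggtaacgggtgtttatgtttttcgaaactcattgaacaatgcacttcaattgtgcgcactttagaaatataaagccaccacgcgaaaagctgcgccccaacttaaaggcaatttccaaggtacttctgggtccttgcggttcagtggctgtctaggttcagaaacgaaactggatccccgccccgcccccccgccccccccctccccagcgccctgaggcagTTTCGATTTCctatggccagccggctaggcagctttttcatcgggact
Ifih1 lies on the minus strand at chr2:62646206-62646505, with the motif on its own strand from base 33 after the start.
Ifih1: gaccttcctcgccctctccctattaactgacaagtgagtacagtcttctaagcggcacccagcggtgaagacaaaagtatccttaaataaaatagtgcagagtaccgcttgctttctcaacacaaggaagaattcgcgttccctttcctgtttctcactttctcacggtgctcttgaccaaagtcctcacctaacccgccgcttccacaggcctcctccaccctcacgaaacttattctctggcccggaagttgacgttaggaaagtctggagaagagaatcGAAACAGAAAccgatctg
Myd88 lies on the minus strand at chr9:119339969-119340268, with the motif on its own strand beginning 40 bases before the start. This window lies inside the Myd88 span given below (chr9:119335934-119341411), so the start used here is not the 5′ end of that span. The same holds for the Tlr3 window.
Myd88: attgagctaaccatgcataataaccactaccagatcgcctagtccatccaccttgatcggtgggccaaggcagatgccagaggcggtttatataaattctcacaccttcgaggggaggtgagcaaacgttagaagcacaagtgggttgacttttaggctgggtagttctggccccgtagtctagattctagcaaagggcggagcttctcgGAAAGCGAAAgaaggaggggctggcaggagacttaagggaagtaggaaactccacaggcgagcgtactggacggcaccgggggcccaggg
Of the other members with an entry, the windows of Mavs, Irf3, Ikbke, Tlr3 and Ticam1 held no such letters, and 8 of the 9 members had an entry. Among all 32851 promoters of 300 bases the motif stood in 3.44%, and among 51 promoters of partner genes of these pathways it stood in 15. The partner lists include products that interferon induces, such as Isg15, Ifit1 and Cxcl10, so these shares are not of like sets. A match describes the letters in this window and is not a measured site.

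On GRCm38 the genes of the cytoplasmic route lie at chr4:40203773-40239828 (Ddx58, minus strand), chr2:62595798-62646255 (Ifih1, minus strand), chr2:131234063-131248025 (Mavs, plus strand), chr7:44997648-45002848 (Irf3, plus strand) and chr1:131254343-131279606 (Ikbke, minus strand). Those of the endosomal route lie at chr8:45395665-45411080 (Tlr3), chrX:167304929-167330558 (Tlr7), chr17:56269319-56276786 (Ticam1) and chr9:119335934-119341411 (Myd88), all on the minus strand. The annotation has genes on the opposite strand that overlap Irf3 (Bcl2l12), Ikbke (Gm28914 and Gm28913), Tlr3 (Gm45542) and Myd88 (Acaa1a), and Slc22a14 overlaps Myd88 on the same strand. Whether counting used strand is not stated in the sources, so reads of these pairs may have been mixed.

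After filters, 41906 nuclei with 146898504 UMIs (unique molecular identifiers, each counting 1 captured transcript once) were left, 19789 nuclei in PHD1-/- and 22117 in PHD1+/+. The deposited libraries held 14120298, 33794389 and 28565474 UMIs in PHD1-/- and 18901508, 32322447 and 24327572 UMIs in PHD1+/+. Replicate 1 of both groups stands apart: the median nucleus held 1365 UMIs (PHD1-/-) and 1363 UMIs (PHD1+/+) there and between 2290.5 and 2902 UMIs elsewhere, and the barcodes come from another list. Orders of levels are over the 13 classes that had at least 10 nuclei in every library, and smaller classes are named apart. Clusters were named by marker genes fixed in a list, so that microglia means microglia-like, and so on for 17 classes. The 9 members and their 64 partner genes were left out of the genes used to cluster. The largest classes were oligodendrocytes with 13354 nuclei, excitatory neurons with 8616, inhibitory neurons with 6622, microglia with 2726, astrocytes with 1450 and oligodendrocyte precursors with 1079. Endothelial nuclei numbered 473, with 11 to 223 per library. Unnamed nuclei numbered 1208 in PHD1-/- and 2145 in PHD1+/+, of which 863 and 1762 were in replicate 1. Levels are in CPM, a scale on which the UMIs of all genes in 1 class of 1 library sum to 1000000. They are read near the 3′ end, so levels of different genes are not compared. Summed counts cannot tell fewer expressing nuclei from less RNA per nucleus.

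Egln2, the targeted gene, had 9.66, 9.04 and 10.1 CPM in all nuclei of PHD1-/- and 29.6, 18.8 and 16.4 CPM in PHD1+/+. The groups did not overlap, and an exact two-sided permutation test gave p = 0.10, the smallest that 3 libraries against 3 allow. The fitted log2 fold change was -1.17 (SE 0.26), with an adjusted p of 1.00 by edgeR's quasi-likelihood test across all genes. With the replicate number as a block, the adjusted p was 0.684 in all nuclei, 0.503 in oligodendrocytes, 0.0418 in excitatory neurons and 0.0189 in inhibitory neurons. The deleted stretch is not named in the sources used here, and reads at the 3′ end may come from outside it.

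Tlr7, the endosomal receptor for single-stranded RNA, was found mainly in microglia. Microglia held 740 of its 891 UMIs, or 83.1%, while they held 2.35% of all UMIs. Its microglial level was 75.6, 224 and 192 CPM in PHD1-/- and 68.5, 251 and 303 CPM in PHD1+/+, and in both groups replicate 1 was the lowest. The mean over 6 libraries was 186 ± 95.3 CPM (SD). The next of the 13 classes in order, endothelial nuclei, averaged 5.59 CPM from 4 UMIs, and the ranges of microglia and endothelial nuclei did not overlap. Against the other 12 classes summed within each library, microglial Tlr7 was 468-fold higher, a log2 difference of 8.87 (SE 0.31). Tlr7 was rare outside microglia and passed the filter on low counts through them, so a test of this difference supports nothing. Border macrophages, a small class of 65 nuclei, held another 27 UMIs of Tlr7, and 298 CPM when pooled, against 214 CPM for microglia pooled. Neutrophils or monocytes held 6 UMIs, or 90.1 CPM pooled, and B cells held 2. In neurons the level was 0.255 CPM in excitatory and 0.133 CPM in inhibitory nuclei.

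**Figure D1:**
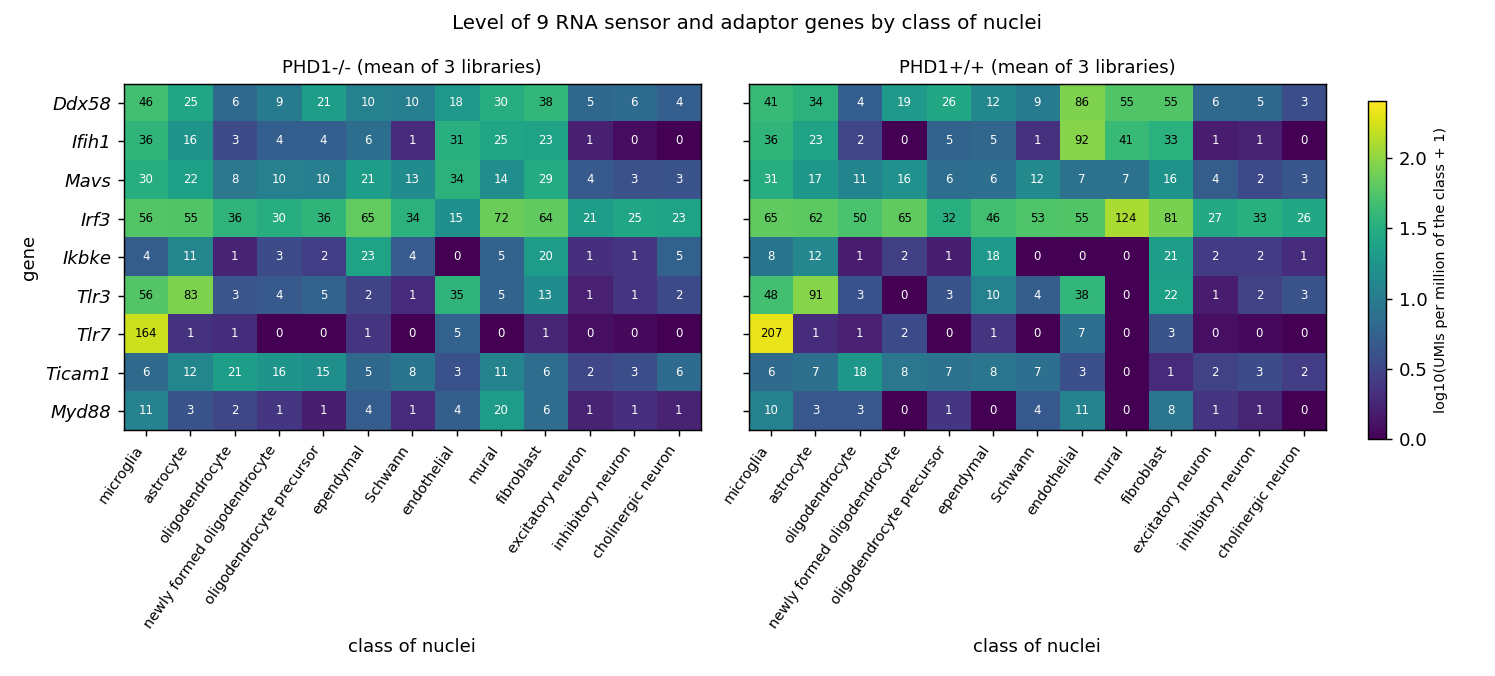
Mean level of the 9 genes (down) in 13 classes of nuclei (across), PHD1-/- on the left and PHD1+/+ on the right; colour is log10(CPM + 1) and each number is the mean of 3 libraries. Tlr7 stands out in microglia, Tlr3 in astrocytes and microglia, and Ticam1 in oligodendrocytes.

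Tlr3, the endosomal receptor for double-stranded RNA, had its highest level in astrocytes. It had 67.4, 93.3 and 87.3 CPM in astrocytes of PHD1-/- and 69.0, 97.3 and 105 CPM in those of PHD1+/+, so the groups overlapped. Microglia followed with 50.4, 31.7 and 86.1 CPM in PHD1-/- and 47.7, 46.3 and 48.9 CPM in PHD1+/+. Astrocytes were above microglia within each of the 6 libraries, although the ranges of the 2 classes overlapped. Endothelial nuclei came next at 36.7 ± 15.6 CPM (SD, 6 libraries), and fibroblasts at 17.7 CPM. Neurons stood at the low end, with 70 UMIs in inhibitory and 28 UMIs in excitatory nuclei, where the mean level was 0.603 CPM. These neighbours in the order had ranges that did not overlap, and inhibitory neurons had the higher level. Astrocytes held 32.8% of all Tlr3 UMIs and 2.19% of the UMIs of the data.

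Ticam1, whose product TRIF is the adaptor of TLR3, was ordered differently from the receptor. Oligodendrocytes held 407 of its 837 UMIs, or 48.6%, and 15.1% of all UMIs. The level in oligodendrocytes was 27.2, 19.9 and 16.4 CPM in PHD1-/- and 20.7, 13.1 and 19.4 CPM in PHD1+/+, with overlapping groups. Over 6 libraries it averaged 19.4 ± 4.73 CPM (SD), against 12.2 CPM in newly formed oligodendrocytes, 10.9 CPM in oligodendrocyte precursors and 9.22 CPM in astrocytes. Microglia, high in both receptors, had 5.73 ± 4.32 CPM of Ticam1 (SD, 6 libraries). Against the summed other classes, oligodendrocytes were 6.79-fold higher in Ticam1 (log2 2.76, SE 0.18, adjusted p 3.17e-07 by edgeR). Excitatory and inhibitory neurons, with 2.12 and 2.66 CPM of Ticam1, held 33.0% and 30.3% of all UMIs, so most of that sum is neuronal. The same comparison gave -0.45 (SE 0.36) for microglia, with an adjusted p of 0.281.

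Myd88, the adaptor of TLR7 and of most other Toll-like receptors, was thinly covered, with 286 UMIs in all. Among the 13 classes its mean was highest in microglia, with 15.1, 7.66 and 8.79 CPM in PHD1-/- and 23.8, 3.23 and 3.91 CPM in PHD1+/+. Those 28 microglial UMIs gave a mean of 10.4 ± 7.82 CPM (SD, 6 libraries), and neighbouring classes in the order had overlapping ranges. When UMIs were pooled over libraries, microglia had 8.10 CPM and endothelial nuclei 9.79 CPM, so this order depends on how libraries are weighted. Neutrophils or monocytes, outside the 13 classes, held 5 UMIs, or 75.1 CPM pooled (exact 95% Poisson interval 24.4 to 175). Against the summed other classes the difference in microglia was 2.23 on the log2 scale (SE 0.40). Myd88 was low in those summed classes and passed the filter on low counts through microglia, so a test of this difference supports nothing.

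The cytoplasmic sensors Ddx58 and Ifih1 shared an order in which vascular nuclei, fibroblasts, microglia and astrocytes stood above neurons. Ifih1 averaged 61.5 ± 57.4 CPM in endothelial nuclei, 35.8 ± 13.6 in microglia, 32.7 in mural nuclei, 28.2 in fibroblasts and 19.7 in astrocytes (SD, 6 libraries). In neurons it was 0.560 CPM in excitatory and 0.438 CPM in inhibitory nuclei. Cholinergic neurons, the class that holds motor neurons, showed 0 of 1861707 UMIs, which allows a level of up to 1.98 CPM. Ddx58 averaged 51.9 ± 49.8 CPM in endothelial nuclei, 46.3 in fibroblasts, 43.5 ± 9.41 in microglia, 42.5 in mural nuclei and 29.5 in astrocytes. Excitatory neurons held 5.43 CPM of Ddx58 and inhibitory neurons 5.62 CPM, and mature oligodendrocytes 4.88 CPM, while oligodendrocyte precursors held 23.6 CPM. All neighbours in the orders of Ddx58 and Ifih1 had overlapping ranges. In endothelial nuclei Ifih1 had 13, 0 and 8 UMIs in PHD1-/- and 10, 9 and 10 UMIs in PHD1+/+, and the levels overlapped. In microglia Ifih1 had 25.2, 35.0 and 47.5 CPM in PHD1-/- and 14.9, 49.5 and 43.0 CPM in PHD1+/+, and Ddx58 had 60.4, 37.2 and 40.4 CPM in PHD1-/- and 44.7, 33.3 and 45.0 CPM in PHD1+/+. These groups overlapped too. Astrocytes had 8.79, 17.0 and 23.1 CPM of Ifih1 in PHD1-/- and 17.2, 21.9 and 30.1 CPM in PHD1+/+, again with overlap. The wide endothelial spread rests on few counts, since PHD1-/- replicate 2 held 11 endothelial nuclei and 0 UMIs of either gene.

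Mavs, the adaptor of both cytoplasmic sensors, was highest in microglia, with 25.2, 24.1 and 42.2 CPM in PHD1-/- and 23.8, 36.6 and 31.3 CPM in PHD1+/+. Fibroblasts averaged 22.7 CPM, endothelial nuclei 20.4 CPM and astrocytes 19.9 CPM. Oligodendrocytes averaged 9.49 CPM, below Schwann, newly formed oligodendrocyte, ependymal and mural nuclei, and neurons were at the low end, with 3.86 CPM in excitatory and 2.65 CPM in inhibitory nuclei. Irf3, the transcription factor reached through MAVS and TRIF, was found in every class. It ranged over 13 classes between 24.2 CPM in excitatory neurons and 97.9 CPM in mural nuclei, with 60.4 ± 9.88 CPM in microglia and 58.3 ± 13.8 CPM in astrocytes (SD, 6 libraries). In microglia Irf3 had 55.4, 54.7 and 58.0 CPM in PHD1-/- and 80.4, 57.0 and 56.7 CPM in PHD1+/+, with overlapping groups. Replicate 1 was above all other libraries for Irf3 in 6 of the 13 classes, and for Ticam1 in 7. Bcl2l12 overlaps Irf3 on the opposite strand, which leaves part of the Irf3 count uncertain.

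Ikbke, the inducible kinase of this pathway, had 336 UMIs in all and, among the 13 classes, its highest level in ependymal nuclei. They averaged 20.8 ± 7.13 CPM and fibroblasts 20.3 CPM, followed by astrocytes at 11.6 ± 5.54 CPM and microglia at 5.80 ± 3.90 CPM (SD, 6 libraries). Ependymal nuclei were above fibroblasts in only 3 of 6 libraries, with overlapping ranges, so the order of these classes is not settled. Ependymal cells line the central canal, and in them the level was 20.2, 24.3 and 25.5 CPM in PHD1-/- and 7.80, 27.8 and 19.4 CPM in PHD1+/+. In endothelial nuclei 0 of 1123268 UMIs fell on Ikbke, which allows up to 3.28 CPM. The 65 nuclei of T or NK cells, too few for the class comparison, held 7 UMIs, or 117 CPM when pooled (exact 95% Poisson interval 47.2 to 242). Intervals and limits of this kind cover counting error only.

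Each of 7 classes was tested against the mean of the other classes, with the library as a block, in 1 fit over 11556 genes of 13 classes. Of the 9 members, 6 passed the filter on low counts, and Ikbke, Ticam1 and Myd88 did not. In microglia all 6 were higher, where 38.7% of all genes tested were called higher and 27% lower. Outside microglia Tlr7 averaged at most 5.59 CPM in these classes, so it passed the filter through the class in which it was then called, and its call there supports nothing. In astrocytes 5 of 6 were higher (25.6% of all genes higher, 19.6% lower), and in endothelial nuclei 4 of 6 (24% higher, 16.1% lower). The call of Tlr7 in endothelial nuclei rests on 4 UMIs; DESeq2 gave 1.72 with an adjusted p of 0.0859, and the comparison with the summed other classes gave -0.062. In excitatory neurons 0 were higher and 4 were lower (38.6% higher, 29.4% lower), and in inhibitory neurons the count was the same (38.8% higher, 29.5% lower). Oligodendrocytes had 1 higher and 2 lower (44.9% higher, 24.1% lower), and precursors 1 and 1 (20% higher, 16.2% lower). Ifih1 and Tlr7 had 0 UMIs in 1 or more classes, so their fitted differences in this comparison depend on the prior count and are given only where a setting turned the sign or ended a call. These p-values rest on the spread between libraries, as nuclei of 1 library are not replicates.

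Among the single differences, Tlr3 was higher in astrocytes by 4.22 on the log2 scale (SE 0.19, adjusted p 6.98e-34 by edgeR) and in microglia by 3.34 (SE 0.21). Ddx58 was higher in microglia by 1.63 (SE 0.22), in endothelial nuclei by 1.51 (SE 0.34), in astrocytes by 1.05 (SE 0.25) and in oligodendrocyte precursors by 0.84 (SE 0.27). It was lower in oligodendrocytes, with a log2 difference of -1.43 (SE 0.23). Mavs was higher in microglia by 1.87 (SE 0.24) and in astrocytes by 1.15 (SE 0.28), and in endothelial nuclei its difference of 0.20 (SE 0.48) had an adjusted p of 0.785. Neurons were lower in Mavs, with -1.29 (SE 0.23) in excitatory and -1.88 (SE 0.25) in inhibitory nuclei. Irf3 was higher in microglia and astrocytes and lower in excitatory neurons, with 0.60 (SE 0.13) in microglia, 0.55 (SE 0.13) in astrocytes and -0.80 (SE 0.09) in excitatory neurons.

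Several of these calls depend on a single library. Ddx58 in oligodendrocyte precursors had an adjusted p of 0.0722 without PHD1-/- replicate 2, and in astrocytes of 0.0584 with replicates 2 and 3 only. In oligodendrocytes the Irf3 call was lost without replicate 3 of PHD1-/- (adjusted p 0.0517) or of PHD1+/+ (0.0830), and the Tlr3 call without any 1 library except PHD1-/- replicate 1. The Irf3 call in precursors was likewise lost without any 1 library except PHD1-/- replicate 1, and the Tlr7 call in endothelial nuclei without PHD1-/- replicate 3 (0.216) or PHD1+/+ replicate 2 (0.120). The Tlr3 calls in both neuron classes ended without PHD1-/- replicate 3, which holds the 1 Tlr3 UMI of mural nuclei. Against the summed other classes, described next, the Tlr3 differences in neurons were -3.61 (SE 0.21, adjusted p 2.66e-08) in excitatory and -2.03 (SE 0.24, adjusted p 9.3e-06) in inhibitory nuclei.

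**Figure D2:**
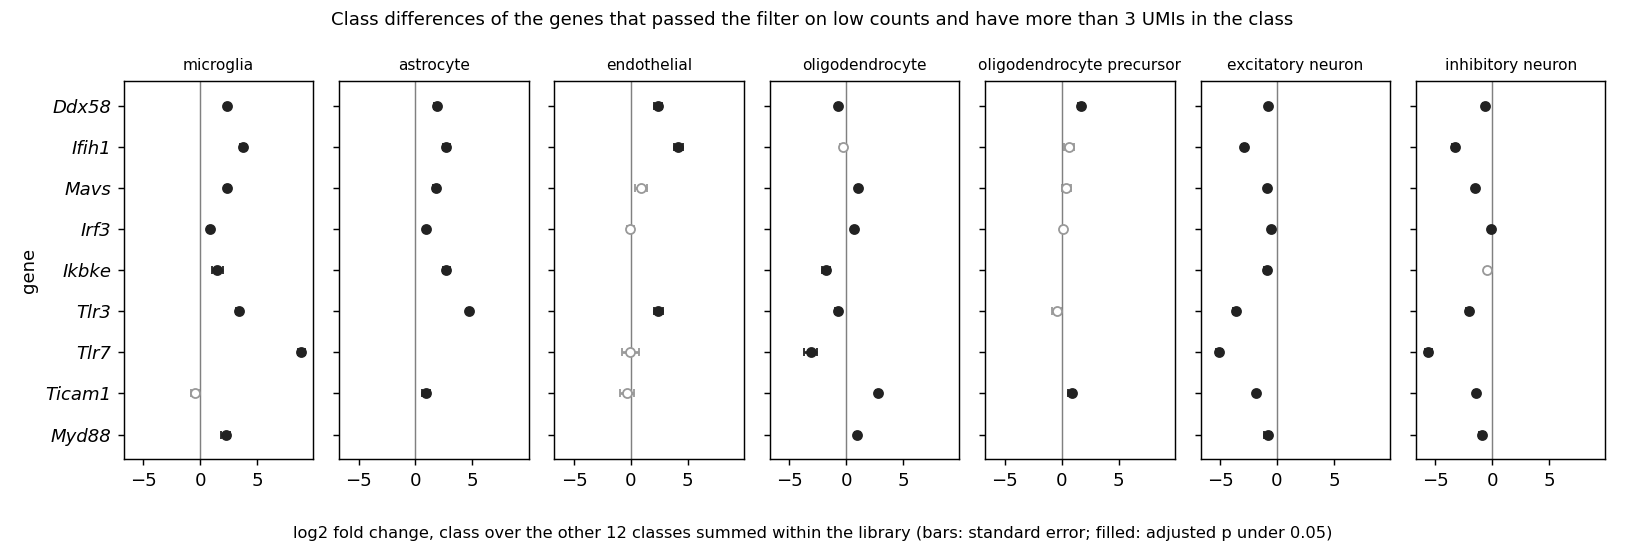
Log2 difference (horizontal) of each gene (down) between a class and the other 12 classes summed within the library, 1 panel per class; bars are the standard error and filled points have an adjusted p under 0.05. Microglial points lie to the right for all genes but Ticam1, and the oligodendrocyte point of Ticam1 lies at 2.76. Tlr7 and Myd88 passed the filter on low counts through microglia, so their filled points there support nothing.

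For the same reason, and because 3 members did not pass the filter, each class was also set against the other 12 classes summed within the library. This comparison was added after the data had been seen. Excitatory and inhibitory neurons held 33.0% and 30.3% of all UMIs, so for the classes other than neurons it is largely a contrast with neurons. Of 58 tests of members, 24 were higher and 23 lower. By class, between 15.5% and 38.4% of all genes were called higher and between 22% and 41.5% lower. In inhibitory neurons these shares were 36.5% higher and 32.6% lower. In microglia 8 of 9 members were higher and 0 lower, with a median of 2.33 on the log2 scale, against -0.09 over all genes. Tlr7 and Myd88 were among them and passed the filter through microglia, so their calls support nothing. Astrocytes had 7 of 8 tested members higher and 1 lower, with a median of 1.82 against -0.04 over all genes. The median in excitatory neurons was -0.87, against 0.03 over all genes. Ifih1 was higher by 4.18 (SE 0.36) in endothelial nuclei, 3.77 (SE 0.28) in microglia and 2.72 (SE 0.27) in astrocytes, all with adjusted p under 0.05 by edgeR. Calls of all genes in these 3 classes were 19.7%, 31.7% and 24.7% higher, and 24%, 38.2% and 28.9% lower. In oligodendrocyte precursors the shares of all genes were 15.5% higher and 22% lower, and Ddx58 (1.70, SE 0.25) and Ticam1 (0.89, SE 0.30) were higher there. Ikbke was higher in astrocytes by 2.71 (SE 0.33) and in microglia by 1.53 (SE 0.45), and lower in oligodendrocytes, with a log2 difference of -1.78 (SE 0.32). Myd88 was higher in oligodendrocytes by 0.98 (SE 0.23), a class in which 38.4% of all genes were called higher and 41.5% lower. Its mean there, 2.84 CPM, lay below those of microglia and of mural, endothelial, fibroblast and astrocyte nuclei. In excitatory neurons all 9 members were lower with adjusted p under 0.05, in a class where 35.3% of all genes were called higher and 32.7% lower.

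Partner genes of the pathways were read in the same comparison. Of the partners of the endosomal receptors, several passed the filter through microglia, so their calls there are not counted. Tlr2 averaged 75.0 CPM in microglia and at most 4.45 CPM in the other 12 classes, and Cd14 113.9 CPM in microglia and at most 8.90 CPM elsewhere. Partners with reads in all 13 classes were also higher in microglia, among them Unc93b1, the chaperone that carries TLR3 and TLR7 to endosomes (5.92, SE 0.11), and the endosomal proteases Lgmn (3.88, SE 0.11) and Ctss (7.13, SE 0.12). Ctss was also 1 of the markers that named the class. Medians of the lists are given against the summed other classes, where that of all genes was -0.09 and 31.7% of all genes were called higher in microglia and 38.2% lower.

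Microglia also had higher levels of all 11 tested adaptor, kinase and ligase genes. Set against the summed other classes, 15 of 17 were higher and 1 lower, with a median of 1.14. Irak2, a kinase acting after MYD88, differed by 4.11 (SE 0.10), Tank, a scaffold of TBK1, by 1.79 (SE 0.11), and Tbk1 itself by 1.21 (SE 0.11). Of 10 partners of cytoplasmic sensing, 8 were higher and 0 lower, and against the summed other classes 10 of 13 were higher and 1 lower, with a median of 1.62. Trim25, a ubiquitin ligase of RIG-I, differed by 2.07 (SE 0.22), Rnf135, another ligase of RIG-I, by 2.21 (SE 0.20), and the RNA-binding protein gene Zc3hav1 by 3.00 (SE 0.15). Among the other nucleic acid sensors 4 of 6 were higher, including Eif2ak2, the double-stranded RNA kinase PKR (2.53, SE 0.14), and Aim2, a DNA sensor (5.05, SE 0.13). In the comparison with the summed other classes 7 of 8 were higher and 1 lower, with a median of 4.69. Unlike the endosomal partners, genes of these lists that passed the filter through microglia were not left out of the counts and medians. The call of such a gene supports nothing, so these counts and medians only describe the lists.

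In astrocytes Irak2 was higher by 2.51 (SE 0.12), Eif2ak2 by 1.56 (SE 0.17), Trim25 by 1.04 (SE 0.27), Rnf135 by 0.99 (SE 0.26) and Irak1 by 0.70 (SE 0.15). Of the 10 cytoplasmic partners 3 were higher and 1 lower, a share near that of all genes in astrocytes (25.6% higher, 19.6% lower). When tested against the summed other classes, 5 of 12 were higher and 0 lower, with a median of 0.41. Endothelial nuclei had 6 of 10 cytoplasmic partners higher and 0 lower, and a median of 0.71 for 12 tested against the summed other classes, with -0.22 over all genes. Trim25 differed by 2.69 (SE 0.28), and Ifit1, an interferon-induced binder of foreign RNA, by 2.85 (SE 0.43).

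Oligodendrocytes had partners in both directions. Traf6, the ligase that acts after MYD88 and TRIF, was higher by 1.74 (SE 0.09), Ripk1, a kinase bound by TRIF, by 1.09 (SE 0.13), Rnf135 by 1.48 (SE 0.15) and Aim2 by 2.07 (SE 0.15). Lower were Traf3, the ligase on the route to IRF3 (-1.54, SE 0.13), Zc3hav1 (-1.45, SE 0.19) and Eif2ak2 (-1.18, SE 0.18). In this class 6 of 11 adaptor, kinase and ligase genes were called higher and 4 lower, where 44.9% of all genes were higher and 24.1% lower. The comparison with the summed other classes called 9 of 16 higher and 6 lower, with a median of 0.53, against -0.03 over all genes. Neurons had lower Trim25, with -4.04 in excitatory and -3.30 in inhibitory nuclei, and lower Irak2, with -2.28 and -2.14. Excitatory and inhibitory neurons had higher Traf3, by 1.05 and 1.41, and higher Adar, the editing enzyme of double-stranded RNA, by 1.24 and 1.35.

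Some genes had levels ordered over the 13 classes much as those of a member. This is a description by Pearson's r of mean log2(CPM + 1) over 13 points that share the same 6 libraries. Tlr7 was most like Cd84 (0.98), Il21r (0.98) and Myo1f (0.97). For Tlr3 the nearest were Gna13 (0.94), Irak2 (0.93) and Pnp (0.91). Ifih1 was nearest to Tmed3, Trim12c and the interferon-induced gene Oasl2, all at 0.96, and Ddx58 to Gm20559 (0.96), Il15 (0.94) and Axl (0.93). The nearest of Ticam1 were Nkx2-2 (0.92), a transcription factor of the oligodendrocyte lineage, Gm9895 (0.91) and Ints4 (0.90). Mavs was nearest to Nfe2l2 (0.95), Rest (0.94) and Nipbl (0.94), and Irf3 to Ppp1r10 (0.92), Rbbp6 (0.91) and Clk2 (0.91). Ikbke was nearest to Asb7 (0.89), Pdgfrl (0.89) and Xpo1 (0.88), and Myd88 to Ipo7 (0.97), Gpsm3 (0.96) and Cyba (0.95).

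Microglia fell into 4 sub-clusters, which are described with no test. The largest, with 1572 nuclei, was led by Inpp5d, Ly86, Selplg and Siglech, and the next, with 1042 nuclei, by Apobec1, Myo1f and the lipase gene Lpl. A score for markers of disease-associated microglia, the mean of their log2 differences from other clusters, was 3.70 in the Apobec1 sub-cluster and 1.44 in the Inpp5d sub-cluster. Ikbke was found almost wholly in the Apobec1 sub-cluster, with 23 UMIs against 1 UMI in the Inpp5d sub-cluster, or 15.6 against 0.56 CPM. The Apobec1 sub-cluster had the higher Ikbke level in 5 libraries and the Inpp5d sub-cluster in 0. Tlr3 had the opposite order, with 42 UMIs and 28.5 CPM in the Apobec1 sub-cluster and 113 UMIs and 63.3 CPM in the Inpp5d sub-cluster, in 6 of 6 libraries. Tlr7 was at 244 CPM in the Apobec1 sub-cluster, against 194 CPM in the Inpp5d sub-cluster, and was higher in the Apobec1 sub-cluster in 5 libraries. Ifih1 was at 38.7 CPM in the Apobec1 sub-cluster, against 29.7 CPM in the Inpp5d sub-cluster, and was likewise higher in the Apobec1 sub-cluster in 5 libraries. Ddx58 had 32.6 CPM in the Apobec1 sub-cluster and 38.6 CPM in the Inpp5d sub-cluster, and was higher in the Apobec1 sub-cluster in 2 libraries.

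A sub-cluster of 58 nuclei led by Trim30a, Cxcl10 and Oasl2, all interferon-induced genes, had the highest levels of the cytoplasmic sensors among the 4. Pooled over libraries, Ifih1 had 18 UMIs and 233 CPM there (exact 95% Poisson interval 138 to 368), and Ddx58 had 14 UMIs and 181 CPM (98.9 to 304). Tlr3 had 12 UMIs and 155 CPM (80.2 to 271). Tlr7 was at 207 CPM from 16 UMIs, between the Apobec1 and Inpp5d sub-clusters. Of these UMIs, PHD1-/- and PHD1+/+ held 7 and 7 for Ddx58 and 11 and 7 for Ifih1.

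**Figure D3:**
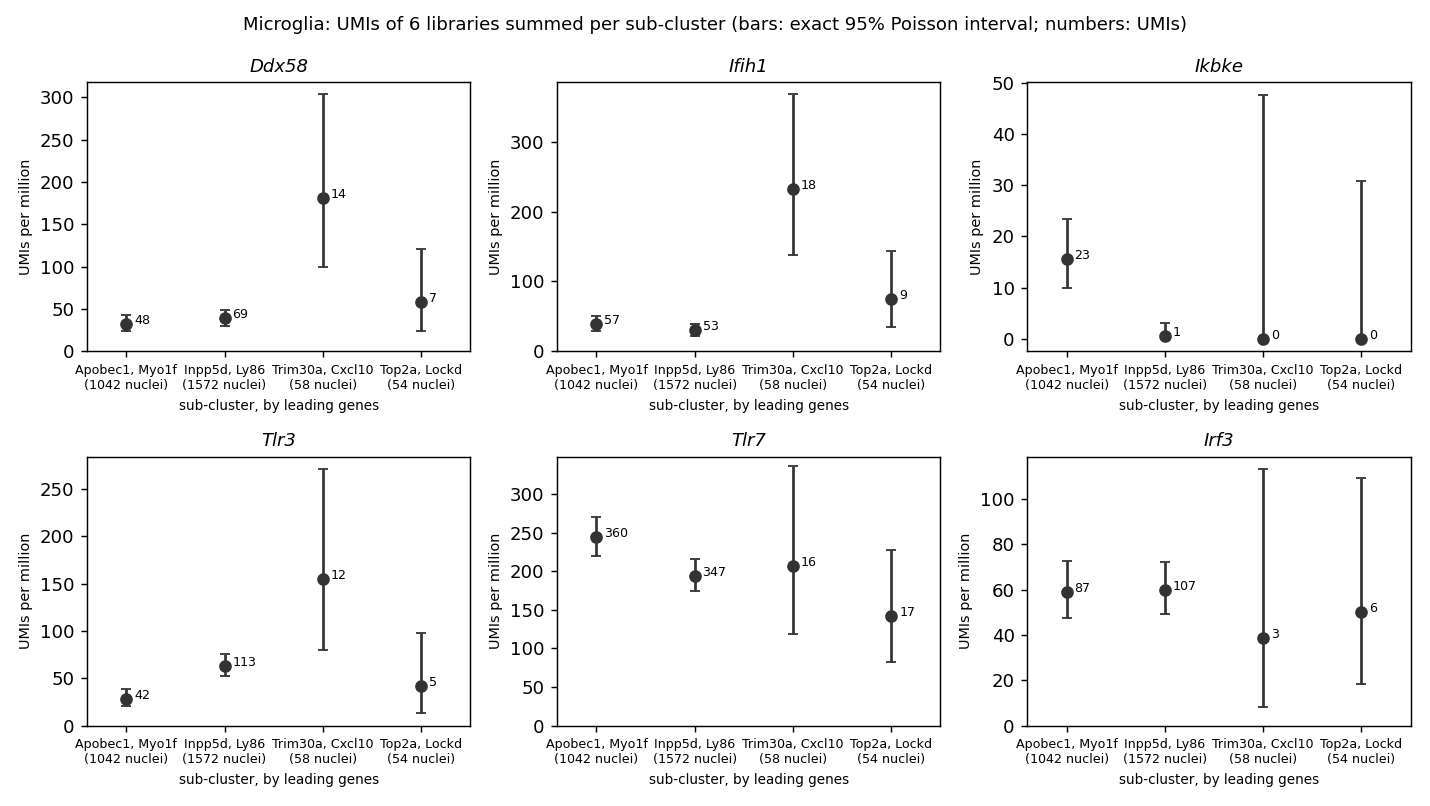
CPM (vertical) of 6 genes in 4 microglial sub-clusters named by their leading genes (horizontal), summed over 6 libraries; bars are the exact 95% Poisson interval and the number beside each point is its UMIs. Ddx58 and Ifih1 are highest in the sub-cluster led by Trim30a and Cxcl10, and Ikbke is near 0 in the one led by Inpp5d.

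Astrocytes and oligodendrocytes were each made of a few clusters. Tlr3 was alike in the astrocyte clusters, with 88.1 CPM in the 1105 nuclei led by Slc7a10 and 88.8 CPM in the 345 nuclei with high A2m and C3, a complement gene. Ticam1 had 22.7 CPM (exact 95% Poisson interval 19.9 to 25.9) in the oligodendrocyte cluster led by Anln. It had 15.5 CPM (11.9 to 19.8) in the cluster led by Neat1 and 14.5 CPM, with an upper bound of 17.4 CPM, in the cluster led by Ptgds.

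Between genotypes, 0 members passed the test in any comparison. In all nuclei and in 7 classes 36 tests of members were made with edgeR's quasi-likelihood test without a block, and 0 had an adjusted p under 0.05 or an unadjusted p under 0.05. Over all genes the share called was 0% in each of the 8 comparisons, and DESeq2 also called 0. In all nuclei, for example, 96 of 19303 genes had an unadjusted p under 0.05 by edgeR and 93 by DESeq2. Over the 8 comparisons this share was between 0.394% and 1.10% by edgeR, fewer than a test at its nominal rate would give. The targeted gene Egln2 was not called by this fit either, so 0 calls do not show that the members are unchanged. A block for the replicate number raised the calls over all genes to 36 in excitatory neurons, 69 in inhibitory neurons and 1 in oligodendrocyte precursors, none of them a member.

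Same-numbered libraries deviated together in most comparisons, although the labels do not say that the number marks littermates. With libraries paired by number, some members had 1 direction. In all nuclei Irf3 and Tlr7 were lower in PHD1-/- in 3 of 3 pairs, as were 15.4% of all genes, and Ticam1 was higher in 3 of 3 pairs, as were 14% of all genes. With the replicate block their unadjusted p values in edgeR were 0.0128 (Irf3), 0.0371 (Tlr7) and 0.0344 (Ticam1), where 1148 of 19303 genes had one under 0.05, and the adjusted p was 0.817 for each. Irf3 was lower in 3 of 3 pairs in oligodendrocytes, excitatory and inhibitory neurons too, where 16.3%, 16.5% and 16.3% of all genes were. Its unadjusted p with the block was 0.00337 in oligodendrocytes, 0.0240 in excitatory and 0.00488 in inhibitory neurons, and the adjusted p was 0.509, 0.525 and 0.250 by edgeR. Tlr7 in microglia had an unadjusted block p of 0.0480 and an adjusted one of 0.995, and was lower in 2 of 3 pairs.

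Of the cytoplasmic route in all nuclei, Ddx58 had 10.7, 6.92 and 7.70 CPM in PHD1-/- and 10.7, 7.96 and 7.48 CPM in PHD1+/+, a log2 fold change of -0.06 (SE 0.25). Mavs had 7.67, 4.52 and 6.41 CPM in PHD1-/- and 7.21, 6.12 and 5.45 CPM in PHD1+/+ (-0.02, SE 0.26). Irf3 had 41.3, 19.7 and 26.2 CPM in PHD1-/- and 53.4, 27.0 and 28.4 CPM in PHD1+/+ (-0.33, SE 0.37). The groups of all 3 genes overlapped, and the gap between replicate 1 and the other libraries of Irf3 was larger than that between genotypes. Ifih1 had 2.77, 2.15 and 4.68 CPM in PHD1-/- and 3.34, 4.19 and 3.50 CPM in PHD1+/+ (-0.20, SE 0.34). Ikbke had 2.20, 1.48 and 2.95 CPM in PHD1-/- and 2.12, 2.95 and 1.95 CPM in PHD1+/+ (-0.09, SE 0.34). Both overlapped between the groups.

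Of the endosomal route, Tlr7 had 2.13, 6.74 and 5.33 CPM in all nuclei of PHD1-/- and 2.76, 8.61 and 7.74 CPM in PHD1+/+ (log2 fold change -0.41, SE 0.55). Microglia made up 4.21, 8.48 and 6.05% of the nuclei in PHD1-/- libraries and 5.16, 8.55 and 6.51% in PHD1+/+ libraries, and their part in this difference was not tested. Within microglia the fold change of Tlr7 was -0.32 (SE 0.51). Tlr3 had 6.25, 3.60 and 7.09 CPM in all nuclei of PHD1-/- and 9.86, 5.57 and 4.63 CPM in PHD1+/+ (-0.25, SE 0.38), and the groups overlapped. Its fold change was 0.20 in microglia and -0.15 (SE 0.26) in astrocytes. Astrocytes made up 3.95, 1.80 and 7.22% of the nuclei in PHD1-/- libraries and 2.14, 3.74 and 2.71% in PHD1+/+ libraries, and their part was not tested either. Ticam1 was the 1 member with a positive fold change in all nuclei, with 10.1, 6.03 and 5.00 CPM in PHD1-/- and 7.32, 4.09 and 4.19 CPM in PHD1+/+ (0.43, SE 0.37). Myd88 had 1.99, 1.54 and 1.76 CPM in PHD1-/- and 3.92, 1.47 and 1.73 CPM in PHD1+/+ (-0.43, SE 0.43), with the highest value in PHD1+/+ replicate 1. The median of the 9 members in all nuclei was -0.20, against -0.01 over all genes.

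**Figure D4:**
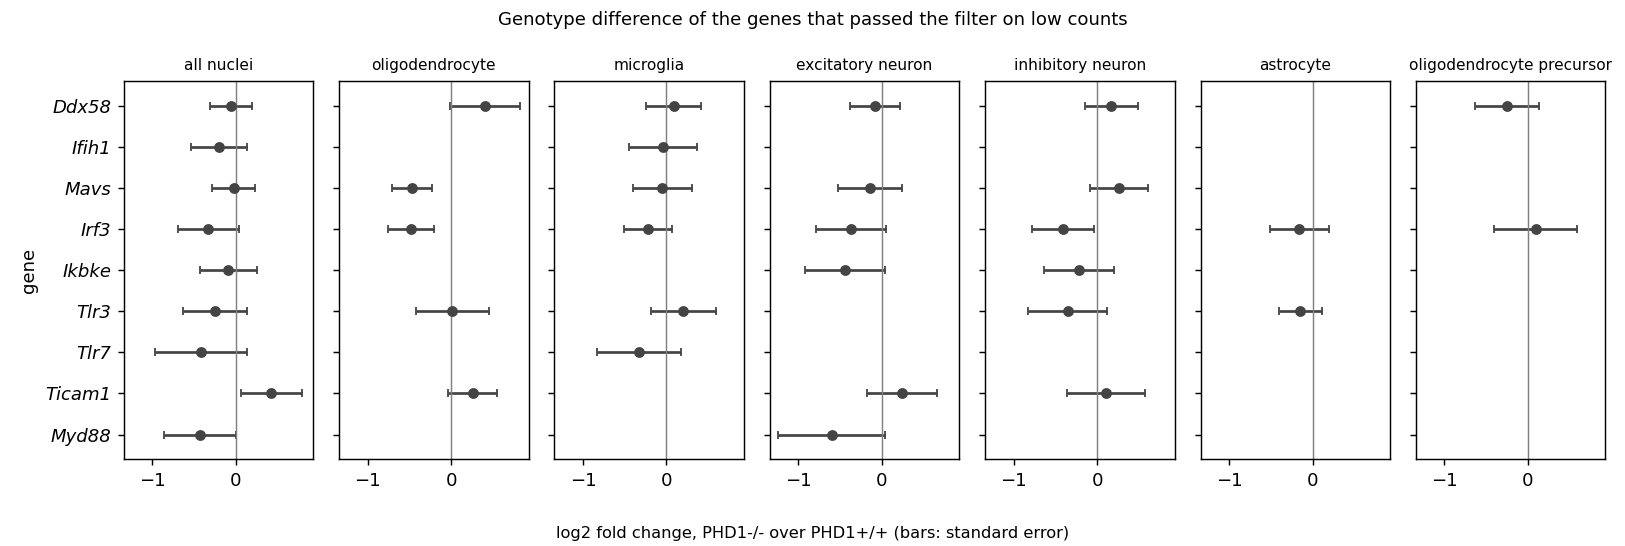
Log2 fold change of PHD1-/- over PHD1+/+ (horizontal, bars are the standard error) for each member (down) that passed the filter on low counts, in all nuclei and 6 classes. No point had an adjusted p under 0.05; in all nuclei the fold changes lie between -0.43 for Myd88 and 0.43 for Ticam1.

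Of 72 values, 9 members in all nuclei and 7 classes, 4 were lower in PHD1-/- with no overlap between the groups and 1 was higher. Mavs in oligodendrocytes had 8.16, 8.13 and 7.52 CPM in PHD1-/- and 11.7, 10.5 and 10.9 CPM in PHD1+/+ (log2 fold change -0.47, SE 0.24, unadjusted p 0.0905 by edgeR). In that class 3.47% of all genes were lower without overlap and 2.25% higher. The groups lay apart with the 3 PHD1-/- values lower, and the exact two-sided permutation p was 0.10. Irf3 in oligodendrocytes had 43.5, 24.6 and 39.2 CPM in PHD1-/- and 59.9, 41.8 and 48.1 CPM in PHD1+/+, where 1 PHD1-/- library lay within the PHD1+/+ range (-0.48, SE 0.28). Ddx58 in endothelial nuclei had 9, 0 and 4 UMIs (PHD1-/-) and 13, 6 and 13 UMIs (PHD1+/+), or 27.0, 0 and 27.5 CPM against 28.0, 106 and 123 CPM. Irf3 in the same nuclei had 24.0, 0 and 20.6 CPM in PHD1-/- and 64.7, 70.6 and 28.3 CPM in PHD1+/+. In endothelial nuclei 2.73% of all genes were lower without overlap and 2.5% higher, and 0 members passed the filter there.

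The fourth value was that of Ifih1 in inhibitory neurons, with 0, 4 and 2 UMIs (PHD1-/-) and 3, 7 and 4 UMIs (PHD1+/+), in a class where 2.24% of all genes were lower without overlap. Ticam1 in oligodendrocyte precursors was the 1 value higher without overlap. It had 21.1, 12.2 and 10.9 CPM in PHD1-/- and 9.57, 5.43 and 5.94 CPM in PHD1+/+, from 6, 7 and 6 UMIs in PHD1-/- against 4, 3 and 2 in PHD1+/+. In that class 3.43% of all genes were higher without overlap. Such shares are over genes that passed the filter on low counts, which Ticam1 in precursors and Ifih1 in inhibitory neurons did not. The shares of all genes lower and higher without overlap were 2.02% and 1.98% in all nuclei, 1.96% and 2.88% in microglia, 2.48% and 2.48% in astrocytes, and 2.16% and 2.08% in excitatory neurons. Genes lower without overlap made up 2.14% in oligodendrocyte precursors, and genes higher without overlap 2.36% in inhibitory neurons. None of the members lay apart in all nuclei, microglia, astrocytes or excitatory neurons.

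**Figure D5:**
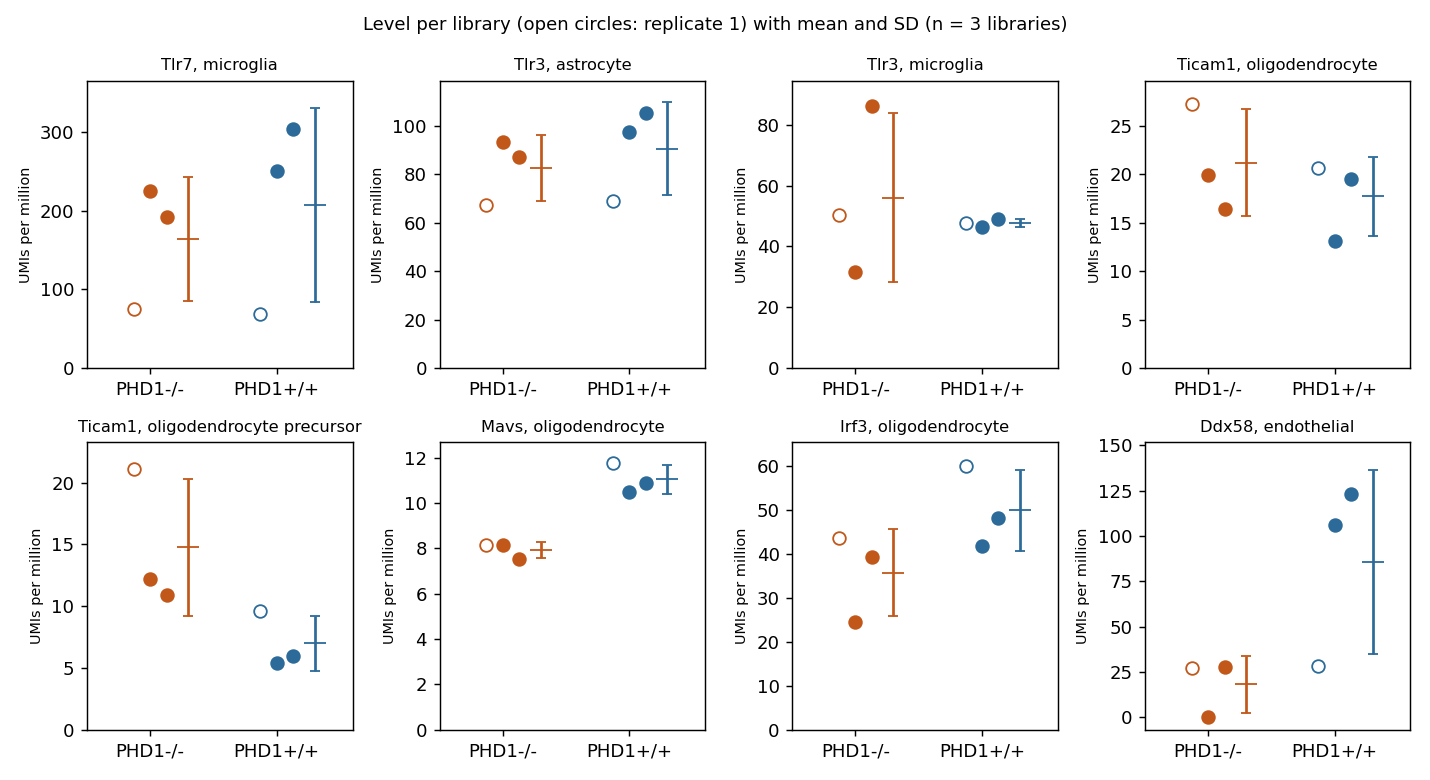
CPM (vertical) in each library for 8 pairs of gene and class, PHD1-/- left of PHD1+/+; open circles are replicate 1, and the bar beside them is the mean with its SD (n = 3 libraries). The genotypes overlap in Tlr7 and Tlr3 and lie apart in Mavs of oligodendrocytes, Ticam1 of oligodendrocyte precursors and Ddx58 of endothelial nuclei. The Ddx58 value of 0 is from a library with 11 endothelial nuclei, which cannot place the level.

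Partner genes and induced products were read between genotypes in the same fits, and 0 of the 64 had an adjusted p under 0.05. Interferon genes themselves were nearly unseen, with 0 UMIs of Ifnb1, Ifna1 and Ifna4 and 1 UMI of Ifna2. In all nuclei 9 of 9 tested partners of the endosomal receptors had negative fold changes, with a median of -0.21, and 6 of 6 induced products, with a median of -0.58, where 51.8% of all genes had negative ones and the median was -0.01. Within microglia the endosomal partners had 4 positive and 5 negative, with a median of -0.05. Positive and negative were 0 and 6 in oligodendrocytes and in inhibitory neurons, and 1 and 5 in excitatory neurons. They were 0 and 3 in astrocytes and in oligodendrocyte precursors, and 1 and 0 in endothelial nuclei. In each of these classes between 52.0% and 53.4% of all genes were negative. The microglial share of nuclei was lower in each PHD1-/- library than in the PHD1+/+ library of the same number. Its part in the difference over all nuclei was not tested. Adaptors, kinases and ligases had 12 positive and 6 negative, with a median of 0.08. The partners with the smallest unadjusted p were Cxcl10, Fadd (0.64, SE 0.35) and Sarm1 (0.23, SE 0.18). Cxcl10, a chemokine induced by interferon and by IRF3, had 1.07, 0.769 and 1.04 CPM in PHD1-/- and 3.13, 2.36 and 3.50 CPM in PHD1+/+ (log2 fold change -1.65, SE 0.30). The groups did not overlap, as in 2.02% of all genes in that direction, and the adjusted p was 1.00 by edgeR.

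By class, astrocytes had 3, 0 and 3 UMIs of Cxcl10 in PHD1-/- and 8, 34 and 5 in PHD1+/+. Neither these UMIs nor the levels in CPM overlapped between the groups. Among genes that passed the filter on low counts in astrocytes, 2.48% were lower without overlap. Cxcl10 did not pass that filter and was not tested there, and most of its PHD1+/+ UMIs came from replicate 2. Among unnamed nuclei the chemokine had 5, 2 and 3 UMIs in PHD1-/-, against 36, 16 and 67 UMIs in PHD1+/+. These nuclei made up 13.1, 1.47 and 3.99% of the nuclei in PHD1-/- libraries and 19.3, 2.67 and 3.38% in PHD1+/+ libraries. Microglia had 25.2, 16.4 and 24.6 CPM of Cxcl10 in PHD1-/- and 2.98, 18.3 and 3.91 CPM in PHD1+/+, with overlapping groups. In the separate classes, the partners with the smallest unadjusted p were Azi2 (0.59), Traf3 (-0.35) and Tbk1 (0.35) in astrocytes. In oligodendrocytes they were Zc3hav1 (0.89), Irak4 (0.40) and Unc93b1 (-0.29), and in microglia Ddx60 (0.51) and Ripk1 (0.47) were among them. None of these fold changes passed the test.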

How the data were processed

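Single nuclei of frozen lumbar spinal cord were read with a droplet-based 3′ kit in 6 libraries. The deposited matrices hold raw UMI counts for each barcode. Per the file headers they were made with Cell Ranger 5.0.1, while Cell Ranger 5.0.2 and Scanpy 1.8.1 stand, with the build mm10, in the submitters' processing notes. The 4 antibody features in the deposited counts hold 0 UMIs.

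Nuclei needed 500 UMIs or more, 300 genes or more and under 5% mitochondrial UMIs, and doublets marked by Scrublet were removed. Scrublet marked 1, 164 and 104 barcodes in PHD1-/- and 0, 259 and 151 in PHD1+/+, so the caller had not worked in replicate 1. Libraries shared 0 to 14 barcodes, except 86 between the replicate 1 libraries. Clusters (Scanpy 1.11.5, Python 3.11.15, 2000 variable genes centred within libraries, 30 components, 15 neighbours, Leiden resolution 1.0, for microglia 0.5) were named from markers by thresholds set after seeing the clusters, and 3353 nuclei stayed unnamed.

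Counts were summed per library and class, with at least 10 nuclei in each library, and tested with edgeR 4.0.16 (R 4.3.3, TMM, filterByExpr, quasi-likelihood, Benjamini-Hochberg over all genes). Genotypes were compared with 3 libraries against 3 and no block, and classes with the library as a block. P-values measure the spread between libraries, which nothing ties to separate animals except the mention of littermate pairs. Alternatives were DESeq2 1.42.0, RLE factors, no filter, at least 1000 UMIs, doublets kept, each library left out, replicates 2 and 3 only, the summed rest, and the replicate number as a block. Same-numbered samples deviated together in 7 of 8 comparisons (correlations of deviations 0.87, 0.69 and 0.63 in all nuclei), but not in endothelial nuclei (0.40, 0.02 and -0.02). The highest correlation between differently numbered samples was 0.57 in all nuclei. It was 0.33 in astrocytes and 0.36 in oligodendrocyte precursors, above the 0.24 and 0.35 of pair 2 there. The labels do not say that the number marks a littermate pair, and these correlations do not settle it. The fits were also run on simulated data. These had the same spread for all genes and no shared deviation of same-numbered libraries. Changed genes in the genotype and class simulations were well covered, unlike most members. The simulations therefore do not show how the fits perform on the members here.

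Named in the text are the 9 members, partner genes past the threshold, else the 3 with the smallest unadjusted p in all nuclei, microglia, astrocytes and oligodendrocytes, and per member the 3 genes most alike over classes among those reaching 10 CPM. Not every partner past the threshold is printed. A partner gene that the rule names in microglia is not reported here. The members and lists were chosen with earlier results of these data known. Promoter sequences come from RefSeq (GRCm38.p6) and gene positions from GENCODE (GRCm38).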

Additional observations from a re-analysis of the deposited data

How the results depend on the processing

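Across 465 recomputed genotype differences of members, 0 had an adjusted p under 0.05 and the lowest was 0.250, while 47 turned in sign. With at least 1000 UMIs the fold change became 0.012 for Mavs in all nuclei, -0.44 for Tlr3 in oligodendrocytes and -0.017 for Ddx58 in microglia, and with doublets kept 0.013 for Mavs in all nuclei. With replicates 2 and 3 only, it became 0.085 for Tlr3 and 0.067 for Myd88 in all nuclei, -0.23 for Tlr3 in oligodendrocytes and 0.047 for Tlr3 in inhibitory neurons. The cause was not tested.

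Leaving out 1 library in turn gave ranges that cross 0. In all nuclei these were -0.24 to 0.12 (Ddx58), -0.58 to 0.015 (Ifih1), -0.19 to 0.15 (Mavs), -0.65 to 0.059 (Irf3), -0.36 to 0.13 (Ikbke), -0.45 to 0.14 (Tlr3) and -0.67 to 0.13 (Myd88). In microglia they were -0.090 to 0.24 (Ddx58), -0.31 to 0.29 (Ifih1), -0.37 to 0.16 (Mavs), -0.32 to 0.55 (Tlr3) and -0.67 to 0.015 (Tlr7). For Irf3 they were -0.37 to 0.075 in astrocytes and -0.23 to 0.67 in oligodendrocyte precursors, and for Tlr3 in oligodendrocytes -0.30 to 0.052. Excitatory neurons gave -0.28 to 0.10 (Ddx58), -0.33 to 0.12 (Mavs), -0.70 to 0.12 (Irf3) and -0.015 to 0.65 (Ticam1), and inhibitory neurons -0.43 to 0.016 (Ikbke) and -0.14 to 0.49 (Ticam1).

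Genes called between genotypes, 0 in the fits reported, were 3 in astrocytes and 2 in oligodendrocyte precursors with no filter, 1 in excitatory neurons with replicates 2 and 3 only, and 1 in precursors, 36 in excitatory and 69 in inhibitory neurons with the replicate block, which changed no other call of the members.

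Of 546 recomputed class differences of members, 493 kept their sign and their side of the threshold. Genes called against the summed rest were 8330 in astrocytes (5230 in the fit reported) and 12709 in oligodendrocytes (7976), and with no filter 12600 in excitatory (7861) and 12565 in inhibitory neurons (7898), where more genes were tested. Irf3 in oligodendrocytes lost its call with RLE factors (0.018), DESeq2 (0.018, adjusted p 0.867) and doublets kept (adjusted p 0.0853), and in precursors with most alternatives. Against the summed rest the sign turned for Tlr7 in astrocytes (-2.57), oligodendrocytes (-3.11) and endothelial nuclei (-0.062), and for Mavs (0.42) and Irf3 (0.11) in precursors. DESeq2 turned Tlr7 in astrocytes (-0.57) and oligodendrocytes (-0.98) and Ifih1 in precursors (-0.071), and at least 1000 UMIs turned Tlr7 in oligodendrocytes (-0.27). Leaving out 1 library gave -0.19 to 0.33 for Ifih1 in precursors and -0.30 to 0.75 for Mavs in endothelial nuclei. Depth limits members under 10 UMIs in a class.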
